A study of Mus musculus with 4 samples.

Results

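The early B cell factor genes *Ebf1*, *Ebf2*, *Ebf3* and *Ebf4* and the genes of the zinc finger proteins ZFP423 and ZFP521, which bind EBF1 and counteract it, were examined in mouse fetal liver (FL) HPCs that lack functional *Ebf1*. Probes of these 6 genes were taken by accession, or by current symbol where the accession named no gene. A probe listed under an older alias alone was not included. This gave 9 of the 39429 probes on the array. By accession, the probes name 19751 genes in all. *Ebf1*, *Ebf2*, *Ebf3* and *Zfp521* had 1 probe each, *Ebf4* had 2 and *Zfp423* had 3. Lineage-negative (Lin-) cells, from which cells bearing markers of mature blood lineages had been removed, were collected at mid-gestation from litters of *Ebf1*+/- parents, and all 4 samples were *Ebf1*-/-. They were infected with a GFP retrovirus without an insert (EMPTY, 2 arrays) or with the same virus carrying *Mir195* (2 arrays), and were grown with SCF, IL-7 and Flt3-ligand at 10 ng/mL each. The methods give 7 days of culture on OP9 cells, a bone marrow stroma line, as the general condition. The *Mir195* insert was amplified from DNA of a human leukaemia line, and the infected cells were not sorted before RNA extraction. About 100 ng of RNA per sample was hybridised to an Agilent mouse array with a single dye. The labels do not say whether the 2 arrays of a virus came from separate embryos or cultures, so that every p-value measures only the spread between these samples. Wild-type cells were not analysed here.

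EBF1 is a DNA-binding protein with a helix-loop-helix dimerisation domain that opens chromatin and turns on the genes of the pre-B cell receptor and of B cell identity, and without it B cell development stops at an early progenitor. Its paralogues share the DNA-binding domain and are better known from other tissues. EBF2 acts in brown adipocytes, bone and neurons, EBF3 in neurons and in bone marrow stroma, and EBF4 is the least studied. ZFP423 and ZFP521 are large proteins with many zinc fingers that bind EBF1 directly and, through a short N-terminal motif, recruit the NuRD deacetylase complex. ZFP521 is typical of immature haematopoietic cells, while ZFP423 acts in neural and adipose precursors, where it is a partner of SMAD proteins in BMP signalling and precedes expression of *Pparg*.

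Each probe is an oligonucleotide of 60 bases, and only its first 30 bases are given here, read from the deposited files. The probes shown are those of *Ebf1* and *Ebf3*, 1 of *Ebf4* and the 3 of *Zfp423*, so that the *Zfp423* probes, which did not respond in the same way, can be told apart. The mature mouse miR-195 is given with its seed, bases 2 to 8, in capitals, from RefSeq (GRCm38.p6, chr11:70235062-70235082, plus strand).
mmu-miR-195a-5p: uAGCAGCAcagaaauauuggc
*Ebf1* A_55_P2065513: agggtgttggttaaagttgtaacccccgag
*Ebf3* A_51_P246543: accgagagcttcactaaatggtagattttg
*Ebf4* A_52_P78975: attgactacggattccagaggctccagaaa
*Zfp423* A_51_P328442: ccccccttcagttaactactttttaattgc
*Zfp423* A_55_P2102335: tgacttgatctgactgcagtaactagttca
*Zfp423* A_55_P2148921: ggacaaaatctacgactgctcgcagtgccc
None of the 9 probes held TGCTGCT, the match to the miR-195 seed, or its reverse complement over its 60 bases, while 317 of all 39429 probes (0.804%) held the match in the orientation in which the probes are listed. The *Ebf1* probe and the *Zfp423* probes A_51_P328442 and A_55_P2102335 had a stop codon in each of the 3 reading frames, so none of them lies wholly in coding sequence. The *Zfp423* probe A_55_P2148921 had no stop codon in any of the 3 frames.

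Of the 9 probes, 2 were well above background on all 4 arrays, 2 on some arrays only and 5 on none. Well above background is the call of the scanner software for a spot whose signal clearly exceeds the background estimated for it. By gene, *Ebf1* and *Zfp423* had a probe that was detected on every array, *Ebf3* and *Ebf4* were detected on part of the arrays, and *Ebf2* and *Zfp521* were detected on none. Over the whole array, 57.3% of the probes were well above background on all 4 arrays. With a looser call of the software, a signal that is positive and significant against background, 4 of the 9 probes were detected on all 4 arrays, and 5 were above the 95th percentile of the 153 negative control spots of each array.

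**Figure D1:**
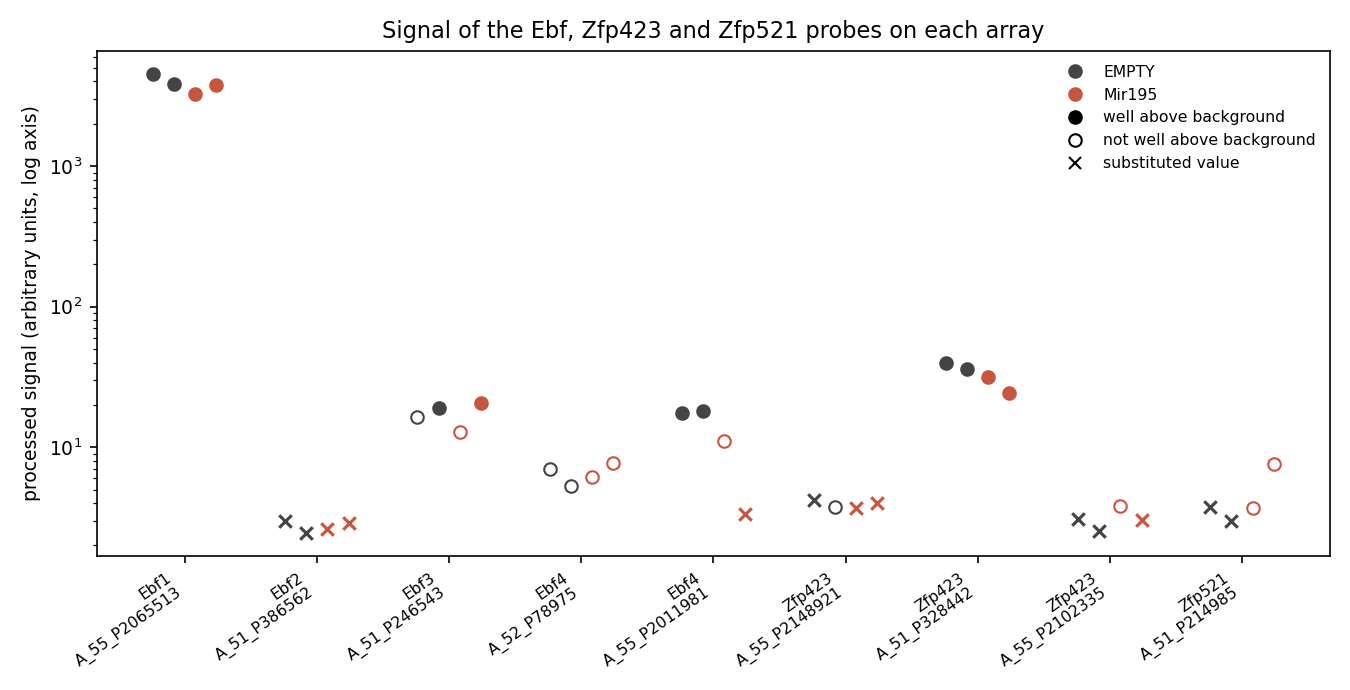
Processed signal (arbitrary units, log axis) of the 9 probes on the 4 arrays, with EMPTY in grey and Mir195 in red. Filled circles are well above background, open circles are not, and crosses are values that the scanner software put in place of a dim signal. Levels of different probes are not comparable, but the plot shows that the *Ebf1* probe lay between 3262 and 4540 on all arrays and that every other probe lay at 40.0 or below.

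The arrays share a slide on which the EMPTY samples precede the *Mir195* samples, so position and virus cannot be told apart. The 75th percentile of the signal, to which each array was scaled, was 902 to 1127, and the background subtracted had a median of 60.0 to 61.3. The sample titles name the cells as *Ebf1*-/- Lin- and give no B cell stage. Markers of B cell progenitors and of other cell types were read for detection, which does not by itself assign a stage. Of the 10 B cell progenitor genes listed, 7 were detected on all 4 arrays, among them *Il7r*, *Ptprc*, *Rag1*, *Rag2* and *Dntt*. Of 8 T cell genes, 7 were detected on all 4 arrays, as were 7 of 8 myeloid genes, 3 of 6 mast cell genes, 4 of 8 neuronal genes and 1 of the 5 erythroid genes on the array. Of 21 stroma genes, 12 were detected on all 4 arrays, with collagens and *Sparc* among them, and 8, including *Pdgfra*, *Dcn*, *Lum* and *Prrx1*, on none.

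*Ebf1* spans chr11:44618100-45008096 in GRCm38.p6. Its probe gave a processed signal of 4540 and 3814 with EMPTY (replicates 1 and 2) and of 3262 and 3771 with *Mir195* (replicates 1 and 2). The spot was 70.0, 58.9, 52.6 and 58.8 times as bright as the background subtracted from it, in the same order. The probe thus gave a clear signal on every array of RNA labelled *Ebf1*-/-. The part of the gene that the null allele lacks was not given in the sources used here and the exon read by the probe was not located, so the probe does not check the genotype. How the signal compares with that of wild-type cells is not known from these arrays. On the log2 scale and relative to the 75th percentile, the values were 2.01 and 1.89 with EMPTY and 1.85 and 2.03 with *Mir195*. The highest and the lowest value were both on *Mir195* arrays, and the viruses overlapped. The mean was 1.95 ± 0.09 with EMPTY and 1.94 ± 0.13 with *Mir195* (SD, n = 2 each). The difference was -0.01 on the log2 scale (standard error 0.13, limma, Benjamini-Hochberg adjusted p = 0.995), with a 95% interval from -0.35 to 0.34. As a fold change this was 0.995, with an interval of 0.782 to 1.27. Changes of *Ebf1* RNA within these bounds, in either direction, were thus compatible with the 2 arrays per virus. The interval is not adjusted for the number of probes tested and is not a limit of detection. The estimate was above 0 with 5 of the 15 alternatives and had no stable direction.

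In total 3 of the 9 probes were tested, those detected in duplicate with EMPTY, with *Mir195* or with both, and none of them was called. Over all 23731 tested probes, limma called 0 at an adjusted p under 0.05, which is 0%, with 0.101 as the smallest adjusted value. None of the 3 probes passed an unadjusted p of 0.05, while 6.25% of all tested probes were higher and 2.09% lower with *Mir195*. Higher probes made up 74.9% of these, 91% after the normexp background correction, 64.6% after quantile normalization and 57.9% with median scaling. Without overlap of the viruses, 0 of the 3 probes were higher and 2, of *Ebf4* and *Zfp423*, were lower, beside 23.4% of all tested probes that were higher and 14.4% that were lower without overlap. The *Ebf4* probe was tested only because it was well above background with EMPTY, which favours a lower value with *Mir195*. The median difference over all tested probes was 0.01 on the log2 scale. For a single probe, the smallest p that an exact permutation test (two-sided) allows with this number of arrays is 0.333.

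**Figure D2:**
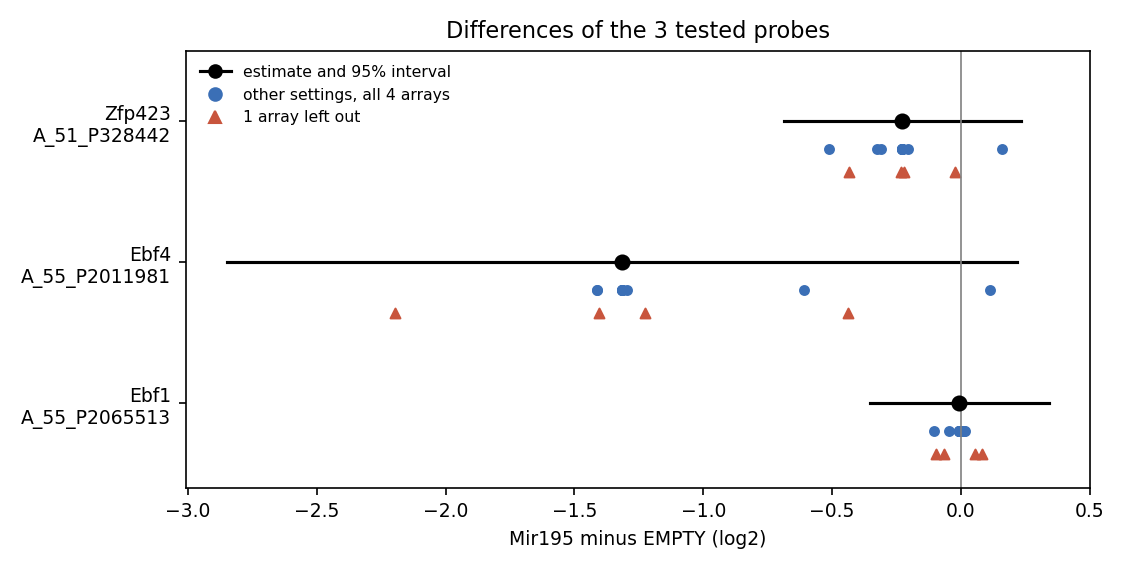
Difference between *Mir195* and EMPTY (log2, horizontal axis) of the 3 tested probes. Black points and lines are the limma estimate and its 95% interval, blue points are the other settings with all 4 arrays, and red triangles leave out 1 array. All 3 intervals include 0, and *Ebf4* has the widest, from -2.85 to 0.22.

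*Zfp423* spans chr8:87661810-87962053 in GRCm38.p6, and its 3 probes disagreed in detection. Probe A_51_P328442 had a signal of 40.0 and 36.2 on the EMPTY arrays and of 31.4 and 24.1 on the *Mir195* arrays, with errors given by the scanner software of 5.64, 4.88, 4.70 and 4.48. Each of these spots was called well above background, although they were only 1.37 to 1.56 times as bright as the background subtracted. On EMPTY array 1, 2 of the 153 negative control spots were at or above it, and on the other arrays 0 were. Scaled to the 75th percentile, its log2 values were -4.82 and -4.83 with EMPTY and -4.85 and -5.26 with *Mir195*. Both *Mir195* values were below both EMPTY values, but *Mir195* array 1 was lower by a few hundredths only. The difference was -0.23 (standard error 0.18, limma adjusted p = 0.838), with a 95% interval from -0.68 to 0.23, or 0.855-fold with an interval of 0.622 to 1.17. Without *Mir195* replicate 2 it was -0.02, without *Mir195* replicate 1 it was -0.43, and after the normexp correction it was 0.16. The size of the difference thus rested on *Mir195* array 2, and its direction on the background correction.

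The other *Zfp423* probes, A_55_P2148921 and A_55_P2102335, were well above background on no array. Their processed signals were 2.54 to 4.19, and 6 of the 8 were values substituted by the software. Hence the transcript of *Zfp423* was seen with 1 of its 3 probes, and which transcript forms the probes share was not examined.

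*Zfp521* lies at chr18:13687013-13972749 in GRCm38.p6, and its probe was below the detection call on all 4 arrays. Its net signal, the spot mean less the subtracted background, was 2.52 and 1.76 with EMPTY and 3.57 and 7.30 with *Mir195*. It was thus highest on *Mir195* array 2, where the signal of 7.66 had an error of 3.47. Negative control spots at or above the probe numbered 5 and 7 with EMPTY and 3 and 1 with *Mir195*. The net signal was above the 95th percentile of these spots on all 4 arrays. The looser call was met on both *Mir195* arrays and on neither EMPTY array. Because the probe was not well above background in either group, no fold and no test are given. ZFP521 is the antagonist known from immature blood cells, and its RNA could not be measured with this probe at this signal.

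**Figure D3:**
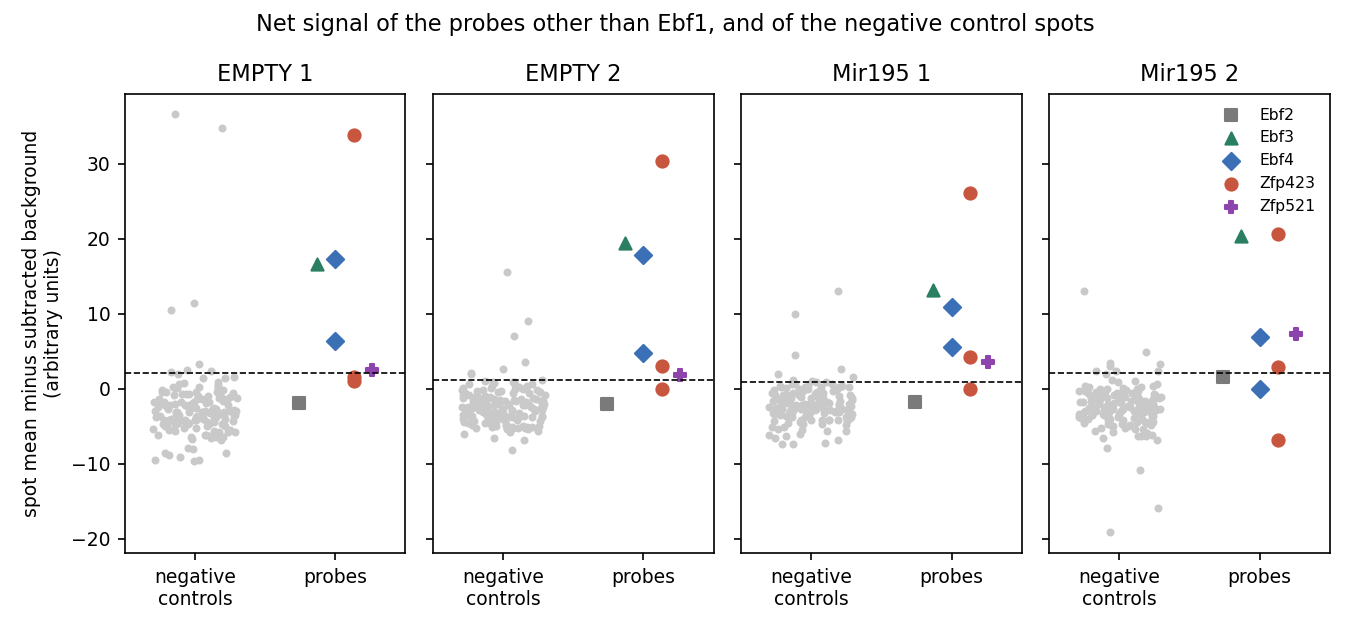
Net signal (spot mean minus subtracted background, arbitrary units) of the 8 probes other than *Ebf1*, by gene, and of the 153 negative control spots (grey) on each array, with the 95th percentile of the controls as a dashed line. The *Ebf2* probe lay below that line on every array, and the *Ebf3* and *Zfp521* probes above it on every array. In addition, 1 *Ebf4* probe dropped below it on Mir195 array 2.

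*Ebf2* (chr14:67233292-67430952, GRCm38.p6) had no signal beyond the spread of the negative controls. All 4 processed values were substituted by the software, and the net signal was -1.87 and -2.09 with EMPTY and -1.72 and 1.53 with *Mir195*. The negative control spots at or above it numbered 52 and 65 of 153 with EMPTY and 59 and 9 with *Mir195*. The probe lay within the spread of the controls on each array.

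*Ebf3* (chr7:137193671-137322805, GRCm38.p6) had a low signal that was above most of the negative controls. Its processed signal was 16.3 and 19.1 with EMPTY and 12.9 and 20.5 with *Mir195*, with errors of 3.69, 3.30, 3.13 and 3.85. The lowest and the highest value both came from *Mir195*. It was well above background on EMPTY array 2 and *Mir195* array 2 only, positive and significant on all 4 arrays, and exceeded by 2 negative control spots on EMPTY array 1 and by 0 elsewhere. The probe therefore lay at the limit of detection with both viruses, and it was not tested, as neither virus had it well above background on both arrays.

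*Ebf4* (chr2:130295126-130370482, GRCm38.p6) had 2 probes that differed in detection. Probe A_55_P2011981 had a signal of 17.6 and 18.2 on the EMPTY arrays, of 11.1 on *Mir195* array 1 and of 3.33, a substituted value, on *Mir195* array 2. The errors were 3.84, 3.34, 3.13 and 3.32. It was well above background on each array with EMPTY and on no array with *Mir195*. It thus entered the test only through the virus in which it was high, so that its direction was set in part by the filter, and no fold is given. The fitted log2 difference, which rests in part on the substituted value, was -1.32 (standard error 0.59, limma adjusted p = 0.663), with a 95% interval from -2.85 to 0.22, and is given as a description only. The means were -5.92 ± 0.13 with EMPTY and -7.23 ± 1.24 with *Mir195* (SD, n = 2 each).

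The spread of this *Ebf4* probe lay almost wholly between the *Mir195* arrays, which were at -6.35 and -8.11. Without *Mir195* replicate 2 the difference was -0.44, and without *Mir195* replicate 1 it was -2.20 with an adjusted p of 0.00239 from limma, the only alternative that called it. In that fit the value substituted on *Mir195* array 2 stood alone for its virus, and 904 of all tested probes were called. With the normexp correction the difference was 0.11. Of all tested probes, 214 (0.902%) shared the detection pattern of this probe, well above background with EMPTY and not with *Mir195*, and 71 had the opposite pattern. The other probe, A_52_P78975, had a signal of 7.03 and 5.31 with EMPTY and of 6.16 and 7.69 with *Mir195*. It was highest on the array on which the first probe was lowest. After scaling, both *Mir195* values of this probe, -7.20 and -6.90, were above both EMPTY values, -7.33 and -7.60, but none of its spots was well above background, and it was not tested.

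In a sample of mixed cells, fewer cells of a type and less RNA per cell cannot be told apart, and *Zfp423*, *Ebf3* and *Ebf1* are also transcribed in mesenchymal cells. OP9 cells do not carry the *Ebf1* null allele, and whether they were removed before RNA extraction is not stated. The tested probes of the stroma genes had a summed level, relative to the 75th percentile, of 11.6 and 12.6 on the EMPTY arrays and of 10.9 and 19.9 on the *Mir195* arrays. *Mir195* array 2, which was highest for the stroma markers, was lowest for the *Zfp423* probe and for *Ebf4* A_55_P2011981, and highest for *Ebf3* and *Zfp521*. The scaled *Ebf1* value was also highest there, at 2.03 beside 2.01 on EMPTY array 1. Of 14 tested stroma probes 12 had a higher mean with *Mir195*, and 0 were called (range -0.07 to 0.88, median 0.18). Those without overlap were 1 higher, *Pdgfrb*, and 1 lower, *Bgn*. Each is 7.14% of the list, beside 23.4% higher and 14.4% lower of all tested probes. Without *Mir195* replicate 2 the median of the stroma probes was -0.20. The part of the stroma in the values of *Zfp423*, *Ebf3* and *Ebf1* was not tested.

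**Figure D4:**
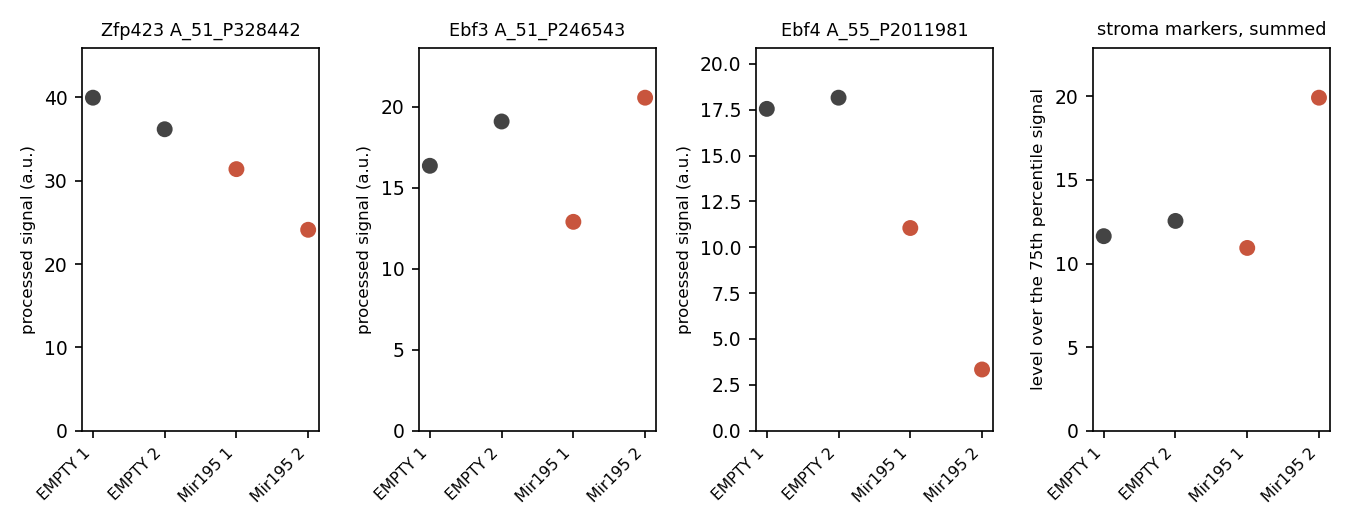
Processed signal (arbitrary units) of the *Zfp423*, *Ebf3* and *Ebf4* probes that were well above background on at least 1 array, and the summed level of the tested stroma probes relative to the 75th percentile, on each array. Mir195 array 2 has the highest sum, 19.9, and the lowest *Zfp423* signal, 24.1. The *Ebf4* value there, 3.33, is a substituted one.

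The pattern of each probe detected on all arrays was compared with the other tested probes by the root mean square difference of the log2 values, centred over the 4 arrays. For *Ebf1* the nearest genes were *Hipk3*, *Cyb561d1* and *Gtf2h2*, at 0.0036, 0.0037 and 0.0052, and 736 of the 23731 probes were within 0.05. For *Zfp423* they were *Irf2bpl*, *Cfap97* and *Rasl2-9*, at 0.015, 0.019 and 0.020, with 207 probes within that distance. With 4 arrays many probes share a pattern, and these names describe the likeness only.

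Genes known to depend on EBF1 or to act with its antagonists were read from lists, and limma called 0 probes in each of them. Of 15 genes that EBF1 activates in B lineage cells, 12 were tested with 15 probes, and 7 of these lay higher and 8 lower with *Mir195*, with a median difference of 0.00, which took either sign with other settings. Without overlap, 1 was higher and 5 were lower, which is 6.67% and 33.3% beside 23.4% and 14.4% of all tested probes. The higher one was *Cd79b*, a signalling chain of the B cell receptor, at -1.18 and -0.96 with EMPTY and at -0.26 and 0.49 with *Mir195* (difference 1.18, standard error 0.28, limma adjusted p = 0.530). Its partner *Cd79a*, a classic EBF1 target, was at -6.18 and -6.14 with EMPTY and at -6.35 and -6.71 with *Mir195*, and was well above background with EMPTY only. It is 1 of the 5 lower probes and was tested only through EMPTY, so that no direction is read from it. The largest of the lower ones was *Fcrla*, an Fc receptor-like protein of B cells, at -0.75 and -0.76 with EMPTY and at -1.25 and -1.43 with *Mir195* (difference -0.59, standard error 0.13, limma adjusted p = 0.530). *Vpreb1*, a surrogate light chain gene, differed by 0.07 with overlap, and *Vpreb2* by -0.19 without. The detected probe of *Pax5*, the factor that acts after EBF1, overlapped, with -5.60 and -6.19 under EMPTY and -5.54 and -5.72 under *Mir195*, and its second probe was not detected. B cell progenitor markers had 10 tested probes, 8 higher and 2 lower, with a median of 0.28, and 0 were called. Those without overlap were 5 higher and 2 lower, which is 50% and 20% beside 23.4% and 14.4%. The higher ones were of *Cd79b*, *Rag1* and *Rag2*, and the lower ones of *Cd79a* and *Dntt*. Probes of *Cd79a*, *Cd79b* and *Vpreb1* are in both lists.

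Probes of factors that drive transcription of *Ebf1* differed by little. Of their 16 tested probes, 9 were higher and 7 lower, the median was 0.02, or -0.07 with median scaling, and the range was -0.29 to 0.26. *Tcf3*, which encodes the E2A proteins, had probes that differed by -0.06 and -0.02. *Foxo1*, which acts with EBF1 in a feed-forward loop, had probes that differed by -0.29 and -0.19, and both overlapped. Probes without overlap numbered 3 in this list, of *Ikzf1*, *Runx1* and *Stat5b*, all higher by 0.20 or less, which is 18.8% beside 23.4%. The second probe of each of these genes overlapped, with differences of -0.01, 0.02 and 0.05 in the same order.

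Genes of other lineages that EBF1 restrains were on the lower side with *Mir195*. Of 6 probes of *Id2*, *Id3*, *Gata3*, *Tcf7* and *Cebpa*, 5 were lower, with a median of -0.34 beside 0.01 over all tested probes. The median was -0.15 without EMPTY replicate 1 and -0.20 without *Mir195* replicate 1. Those of *Id2*, an inhibitor of E proteins, and *Gata3*, a T cell factor, did not overlap, which is 33.3% of the list beside 14.4% of all tested probes. *Id2* was at 3.20 and 2.88 with EMPTY and at 2.69 and 2.63 with *Mir195*, and *Gata3* at -0.03 and -0.21 against -0.45 and -0.39. Their differences were -0.38 and -0.30, with adjusted p of 0.625 and 0.641 from limma. Of the tested T cell probes, 10 of 11 were lower as well, 6 of them without overlap (54.5% beside 14.4%). The *Bcl11b* probe among these was well above background with EMPTY only. The summed level of the tested T cell probes was 6.13 and 4.92 with EMPTY and 4.21 and 4.53 with *Mir195*. In addition, 3 of the 6 probes of the restrained genes, those of *Gata3* and *Tcf7*, are in both lists. The part of the T cells in these differences was not tested.

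ZFP423 and ZFP521 repress through the NuRD complex, and RNA of all 11 subunits listed was well above background on the 4 arrays. The 19 probes of this list were 8 higher and 11 lower, with a median of -0.01 that was 0.02 after quantile normalization. *Chd4*, the remodelling ATPase, was at 5.26 and 5.34 with EMPTY and at 5.41 and 5.43 with *Mir195*, without overlap, and differed by 0.12. The 3 probes of *Hdac1*, a deacetylase, differed by -0.01, -0.06 and -0.12, the last 2 without overlap. *Rbbp4*, a histone-binding subunit, had a probe that was higher by 0.20 without overlap and another that differed by 0.01. The widest difference, 0.47, belonged to 1 of 2 *Mta3* probes, which overlapped.

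Of 10 genes of BMP signalling, in which ZFP423 takes part, 9 were detected on all 4 arrays, and *Bmpr1a*, a receptor, on none. The 12 tested probes of this list were 8 higher and 4 lower, with a median of 0.13, and 2 were higher without overlap, which is 16.7% beside 23.4% of all tested probes. The median was -0.01 without EMPTY replicate 2, -0.03 without *Mir195* replicate 2 and 0.26 without *Mir195* replicate 1. *Id1*, an immediate target of BMP signalling, was the largest, at -3.01 and -2.47 with EMPTY and at -2.25 and -1.98 with *Mir195* (difference 0.63, standard error 0.23, limma adjusted p = 0.578). *Smad1*, a receptor-regulated SMAD, was at -4.49, -5.28, -4.82 and -4.05 with its first probe and differed by 0.45 with overlap, and its second probe differed by 0.18. *Smad4*, the common SMAD, differed by -0.11 and 0.00.

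Of the adipogenic genes, *Pparg*, which follows *Zfp423* in preadipocytes, was at -3.11 and -2.88 with EMPTY and at -3.06 and -2.60 with *Mir195*, a difference of 0.16 with overlap. The 11 tested probes of this list were 5 higher and 6 lower, with a median of -0.08, or 0.13 after the normexp correction. Without overlap 2 were lower (18.2% beside 14.4%), *Adipoq* by -0.37 and *Fabp4* by -0.08, both made by adipocytes. *Dlk1*, an inhibitor of adipogenesis, had the widest spread, with its probe A_66_P117477 at 0.96 and 1.89 with EMPTY and at 1.64 and -0.49 with *Mir195*.

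Genes of haematopoietic progenitors, the cells in which ZFP521 is typical, were higher in 10 of 11 tested probes, with a median of 0.26, and 8 of these did not overlap, which is 72.7% beside 23.4% of all tested probes. The largest without overlap were *Tal1* at 0.45, *Flt3* at 0.33, *Cd34* at 0.30 and *Kit* at 0.27, the first a factor and the others surface proteins of stem and progenitor cells. Their adjusted p were 0.584 to 0.697 from limma, and *Gata2* and *Mecom*, from the same list, were well above background on no array. The second probe of *Flt3* differed by 0.16 without overlap, and that of *Cd34* by 0.14 with overlap. Without *Mir195* replicate 2 the median of the list was 0.14. Myeloid probes lay on the same side, with 10 of 13 higher, 5 of them without overlap (38.5%), and a median of 0.29. Among these, the probes of *Mpo*, the peroxidase of granulocytes and their precursors, differed by 0.72 and 0.71. Of the 3 probes of *Itgam*, an integrin of myeloid cells, 1 differed by 0.67 and the others, with overlap, by 0.15 and 0.05. The 3 lower probes were those of *Cebpe* (-0.35), *Ly6g* (-0.28) and *Elane* (-0.10), also myeloid genes. That of *Ly6g* did not overlap (7.69% beside 14.4% of all tested probes), and that of *Cebpe* was well above background on 3 arrays only. The summed level of the tested myeloid probes was 13.8 and 15.9 with EMPTY and 16.1 and 16.3 with *Mir195*. The part of the myeloid cells in the values of the progenitor genes was not tested.

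**Figure D5:**
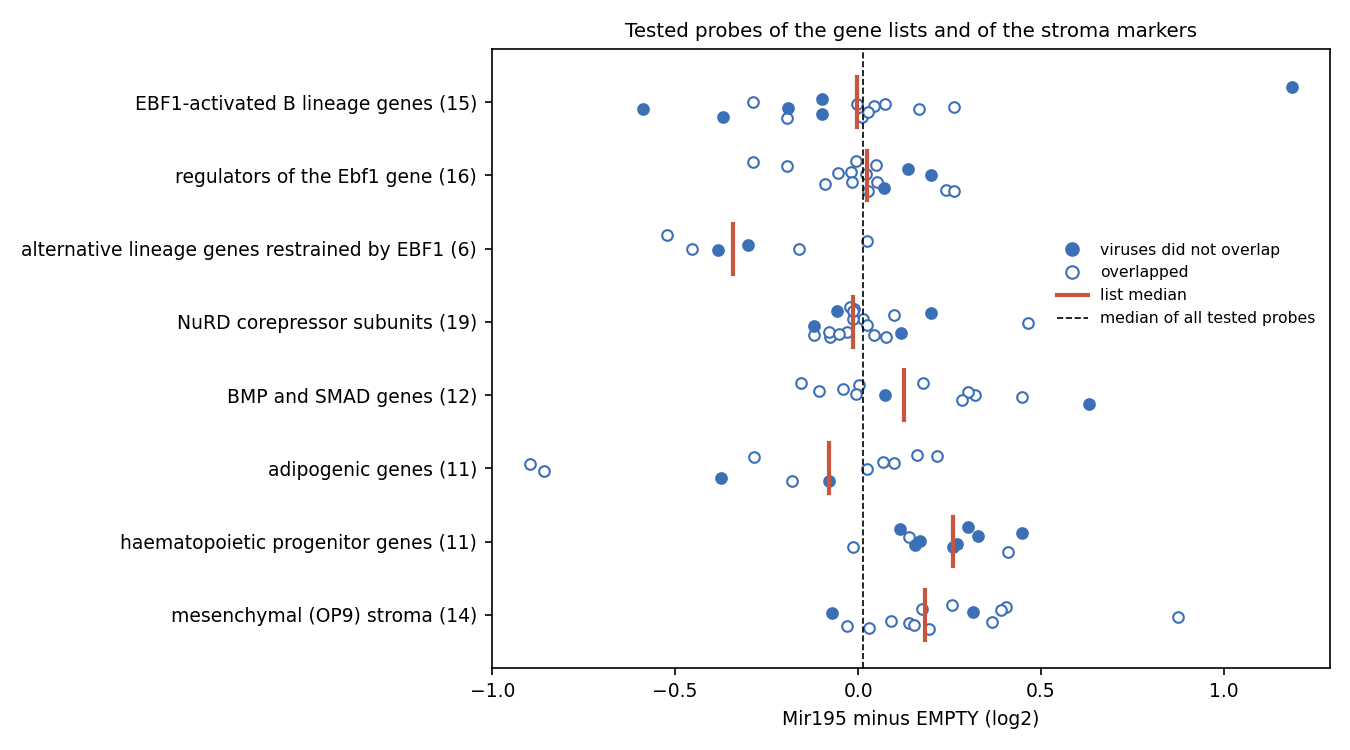
Difference between *Mir195* and EMPTY (log2, horizontal axis) of each tested probe of the gene lists and of the stroma markers, with the number of probes in parentheses. Filled points did not overlap between the viruses, red bars are list medians and the dashed line is the median of all tested probes, 0.01. The medians run from -0.34 for the restrained lineage genes to 0.26 for the progenitor genes, and none of the probes was called.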

How the data were processed

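For each of 44397 spots per array, the authors deposited the intensity from the scanner software, Agilent Feature Extraction (9.1.3.1 in the file headers, 11.5.1.1 in the submitters' processing notes), with its error, its background and its flags. The background subtracted equalled the fitted spatial surface of the array and not the local background (median 38 to 39). Dim spots carry a substituted value, which held for 19.4% to 22.1% of the 43020 spots that are not controls. A value table deposited by the authors holds log2 values, scaled to the 75th percentile, which correlated with the values computed here with r = 0.998 on each array.

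Here log2 of the processed intensity was averaged over the spots of a probe, without outlier spots, and the array's 75th percentile over 39429 probes was subtracted. No spot was saturated. Samples were grouped by virus from their titles and source names. The 23731 probes detected (well above background) in duplicate with EMPTY, with *Mir195* or with both were fitted in limma 3.58.1 (lmFit, eBayes; R 4.3.3 and the data.table package, version 1.17.8). Tests were two-sided, with the Benjamini-Hochberg adjustment over all of them and a threshold of 0.05. Intervals are 95%. The number of arrays limits the precision. The test was checked on simulated arrays with independent noise for each probe. Such arrays lack shifts shared across probes, so the check does not cover these. Symbols and positions are those of the GRCm38.p6 annotation, by accession, for 26055 probes. Members and lists were chosen with earlier results of these data known. Named genes are all members, the widest non-overlapping probes of each list (at most 4) and known partners. Others, as *Vpreb1*, *Dlk1*, *Mta3* and the markers, were named after their values were seen. *Igll1* and *Hbb-b1* matched no probe by symbol.

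As alternatives, background was corrected by normexp (offset 50), and arrays were scaled by quantile normalization, the median or the 75th percentile of detected probes. Further ones were the authors' table, 2 other filters, eBayes with a trend and robust settings, a block for the replicate number, leaving out each array in turn, the methods' t-test on the log2 ratios of same-numbered replicates, and, for detection, a looser flag and the negative control spots. A crossed block was added after seeing the data. The sequence of 1 probe and the result of 1 marker gene are not reported here.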

Additional observations from a re-analysis of the deposited data

How the results depend on the processing

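Over the 15 alternatives, 14 for *Ebf4*, the log2 difference of *Ebf1* ran from -0.10 to 0.08, that of *Ebf4* A_55_P2011981 from -2.20 to 0.11 and that of *Zfp423* from -0.51 to 0.16. *Ebf1* was above 0 after the normexp correction (0.0081), quantile normalization (0.013), the 75th percentile of detected probes (0.015) and without EMPTY replicate 1 (0.054) or *Mir195* replicate 1 (0.083). With normexp, *Ebf4* (0.11) and *Zfp423* (0.16) were higher with *Mir195*. With 1 array left out, *Ebf1* ran from -0.10 to 0.08, *Ebf4* from -2.20 to -0.44 and *Zfp423* from -0.43 to -0.02. The cause of these changes was not tested.

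Calls over all probes were 0 with limma (1979 at an unadjusted p under 0.05), 3 with median scaling, and 0 to 904 with 1 array left out, 904 without *Mir195* replicate 1 and 3 without replicate 2. The methods' t-test gave 1134 probes at 0.05 and 0 after adjustment. Deviations of same-numbered arrays from their virus means correlated with r = -0.10 over 23731 probes. With 2 arrays per virus, this cannot show whether the samples were prepared as pairs. The replicate block gave 5 calls, none of a member. The crossed block gave 0.

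List medians moved by more than the spread between arrays for the EBF1-activated genes with normexp (0.10) and median scaling (-0.10), the *Ebf1* regulators with median scaling (-0.074), NuRD with quantile normalization (0.022) and median scaling (-0.11), and the adipogenic genes with normexp (0.13), quantile normalization (-0.17) and median scaling (-0.18). With 1 array left out they ran from -0.093 to -0.025 for the EBF1-activated genes, -0.47 to -0.15 for the restrained genes, -0.028 to 0.012 for NuRD and 0.14 to 0.34 for the progenitor genes. Detection on all arrays rose from 2 probes to 4 and 5 with the looser calls. Signal over background limits every member but *Ebf1*.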
